A study of Mus musculus with 8 samples.

Results

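Nf1, which this tumour model can lose together with Trp53, was followed with other genes of the Ras switch. These were the Ras GTPase-activating proteins (RasGAPs) Rasa1, Rasa2, Rasa3, Rasal2 and Dab2ip and the Ras genes Nras and Hras. The rule named 8 genes, and a gene was measured where a probe set of the array is annotated to it alone, with the highest mean probe set taken. Of the 8 genes, 7 were measured, out of 19938 genes in all, each by 1 probe set, and Hras was not analysed here. Expression came from 8 arrays of primary malignant peripheral nerve sheath tumours, aggressive tumours of the Schwann cell lineage, of NPcis mice. All 4 groups share this genetic model, in which null alleles of Nf1 and Trp53 lie on the same copy of chromosome 11, so that loss of the other copy removes both genes. The cells of the host around the tumour keep 1 working copy. The groups hold 2 arrays each: vehicle, rapamycin (an mTORC1 inhibitor) at 5 mg/kg by injection into the peritoneum, PD-0325901 (a MEK inhibitor) at 1.5 mg/kg per dose by gavage, and both drugs at these doses, here called the combination. All were taken at 14 hours. Nothing in the labels says that arrays of a group came from separate animals or tumours, or gives the age of the mice, so every p-value covers only the spread between these samples, which may be technical.

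Ras proteins are switches that are active when bound to GTP and signal through RAF, MEK and ERK and through PI3K and mTOR. RasGAPs turn the switch off by speeding the hydrolysis of GTP, and exchange factors such as Sos1 turn it on. Neurofibromin, the product of Nf1, is the RasGAP whose loss causes neurofibromatosis and leaves Ras overactive in Schwann cells. PD-0325901 and rapamycin act below Ras, on MEK and on mTORC1.

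Values are log2 expression as deposited, so a difference of 1 is a doubling on the array's scale. Comparisons are contrasts of 4 group means in limma, two-sided, with Benjamini-Hochberg adjustment over all 19938 genes and a threshold of 0.05. A main effect of a drug sets the 4 arrays with it against the 4 without it, averaged over both states of the second drug. Array medians lay between 7.79 and 7.90, and correlations between arrays across probe sets were 0.961 to 0.986 within groups and 0.963 to 0.985 between groups. With so few arrays all values below have wide errors. Of 11 Schwann cell markers 9 were measured. Sox10, the lineage's transcription factor, lay between 7.85 and 8.17 on the 8 arrays, S100b between 7.12 and 7.32 and the myelin gene Pmp22 between 11.03 and 12.59. Of the 9, 3 had a mean above the median level of all genes: Ngfr, Mbp and Pmp22. The median percentile of mean level was 40.1 for the 9. It was 96.01 for macrophage, 98.6 for fibroblast and 40.6 for T and NK cell markers. In the PD-0325901 main effect 6 of the 9 were higher and 3 lower, with a median difference of 0.01. Cdh19 had the largest, 1.01 (unadjusted p = 0.0512 by limma). With no detection call in the values used here, presence of a transcript was not judged. Arrays of whole tumours also cannot tell fewer cells of a type apart from less RNA per cell. Of 14 genes that ERK signalling is known to induce, listed with earlier results of these data known, 13 were lower on average with PD-0325901. Spry2 was higher, at 0.18 (SE 0.24). The median difference of the 14 genes was -0.33, against -0.01 for all genes, and 0 passed the threshold.

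None of the 7 measured genes passed the threshold in any of the 8 comparisons, and neither did any other gene in this limma fit (0% called in each). At an unadjusted p under 0.05, 2 of the 7 differed in the PD-0325901 main effect, Rasa2 and Rasal2, both lower with the drug. Over all genes 9.6% reached that p in the PD-0325901 main effect, and 4.14% reached it on the lower side. In PD-0325901 against vehicle Rasa2 alone reached it (1 of 7, with 5.84% of all genes). In the other 6 comparisons 0 of 7 did, beside 5.55% of all genes for the rapamycin main effect, 4.93% for rapamycin against vehicle, 9.07% for the combination against vehicle, 6.66% and 3% for the combination against rapamycin and against PD-0325901, and 2.18% for the interaction of the drugs. The median difference of the 7 genes was -0.22 in the PD-0325901 main effect and 0.08 in the rapamycin main effect, where the median of all genes was -0.01 in both.

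**Figure D1:**
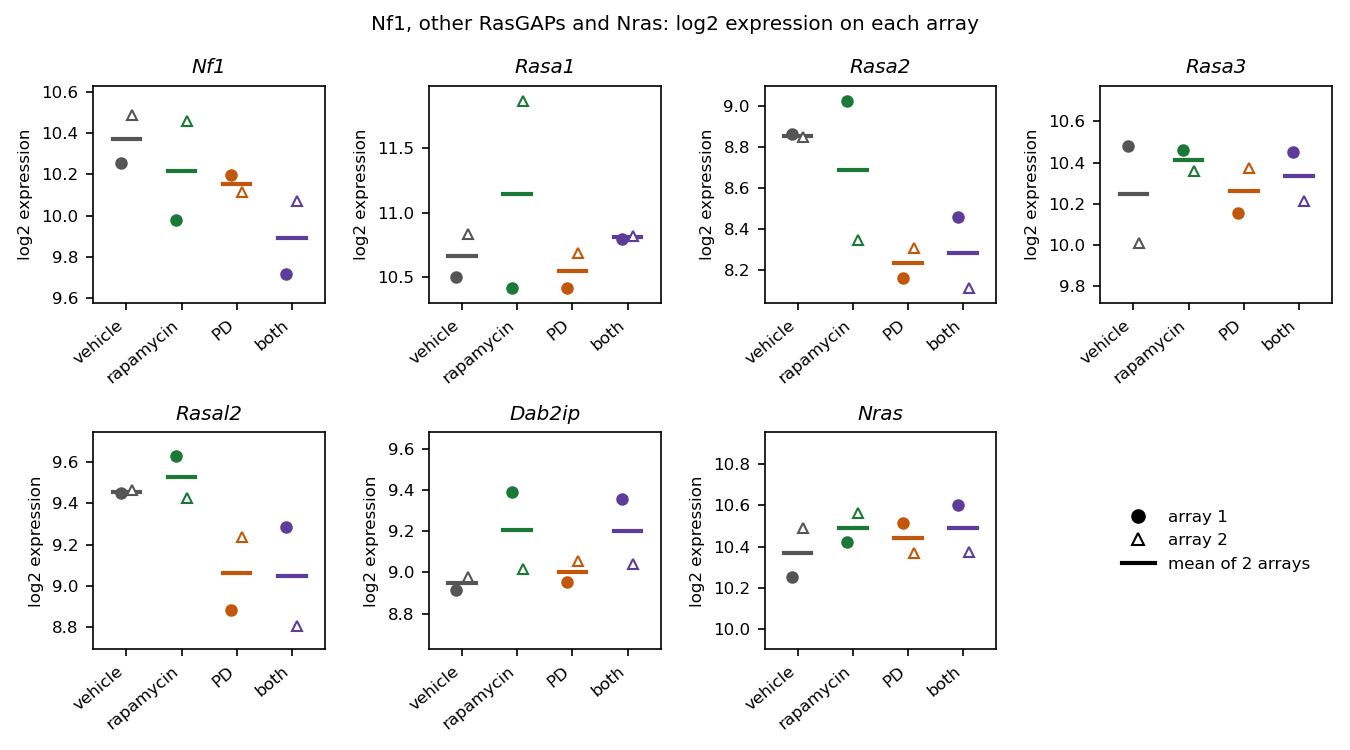
Log2 expression (y axis, each panel on its own range) of the 7 measured genes in the 4 treatment groups (x axis; PD is PD-0325901, both is the combination). Circles are array 1, triangles array 2 and bars the mean of 2 arrays; Rasal2 lies between 8.81 and 9.29 with PD-0325901 and between 9.43 and 9.63 without it, and rapamycin array 2 stands alone for Rasa1 at 11.87.

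Nf1 had the highest mean in vehicle and the lowest in the combination. Its values were 10.26 and 10.49 with vehicle, 9.98 and 10.46 with rapamycin, 10.20 and 10.11 with PD-0325901 and 9.72 and 10.07 with the combination. Both combination arrays lay below both vehicle arrays and below both PD-0325901 arrays, while the 2 rapamycin arrays spanned most of the range. The group means ran from 10.37 in vehicle through 10.22 in rapamycin and 10.15 in PD-0325901 to 9.89 in the combination, an order in which the rapamycin arrays overlapped with both neighbours and PD-0325901 and the combination differed by -0.26 (SE 0.21, unadjusted p = 0.251, adjusted p = 1.0 by limma). The combination minus vehicle was -0.48 (SE 0.21, 95% confidence interval -0.98 to 0.024, unadjusted p = 0.0585, adjusted p = 0.569 by limma). Without combination array 1 it was -0.30 and without combination array 2 -0.65, and the combination minus PD-0325901 was then -0.085 and -0.44. Arrays that do not overlap in this direction were found for 22.3% of all genes in the combination against vehicle, for 18.2% against PD-0325901, and, as in the lower PD-0325901 arrays here, for 20.9% in PD-0325901 against vehicle. The main effects were -0.27 (SE 0.15) for PD-0325901 and -0.21 (SE 0.15) for rapamycin, with adjusted p of 0.655 and 0.910 by limma. Without rapamycin array 2 these were -0.15 and -0.33, and without rapamycin array 1 they were -0.39 and -0.087.

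The Nf1 probe set cannot serve as a check of the tumours' genotype. A null allele that is still transcribed gives signal on a whole-transcript array, as do the host cells in the tumour, and where the probes lie relative to the targeted part of the gene was not analysed here. The Nf1 values are therefore levels of transcript, not of functional neurofibromin.

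The genes whose profile over the 8 arrays came closest to that of Nf1 were Nars2, the mitochondrial asparaginyl-tRNA synthetase, St7, a candidate suppressor of tumour growth, and the zinc finger gene Zfp719. After each gene was centred on its own mean, their root-mean-square differences from Nf1 were 0.077, 0.084 and 0.086 log2. The median over the 9968 genes compared, all with a mean above the median level, was 0.328, and the spread of Nf1 itself on this measure was 0.237. Nars2 ran from 8.77 on vehicle array 2 to 7.93 on combination array 1, the same arrays that were highest and lowest for Nf1. This likeness is a description over 8 arrays that share libraries and groups.

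**Figure D2:**
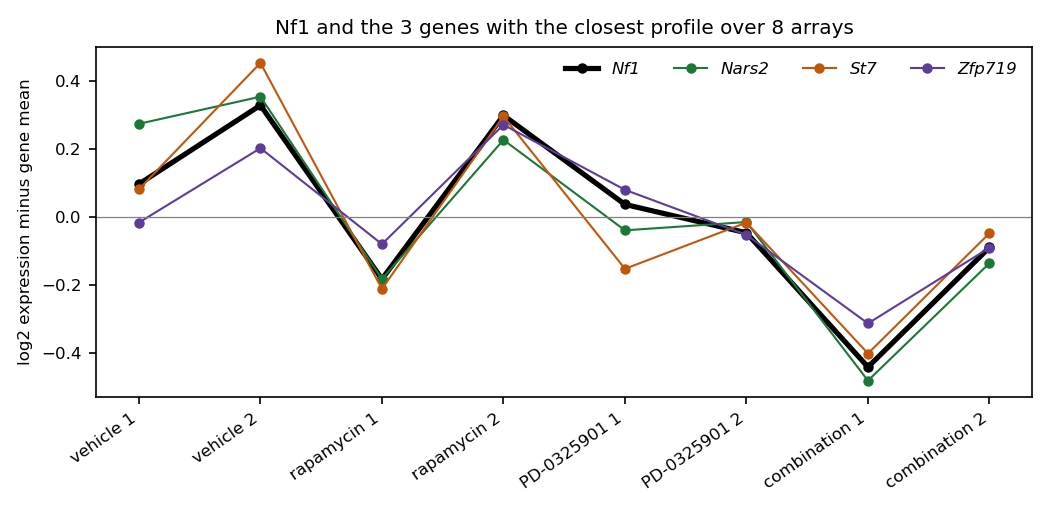
Log2 expression minus the gene's mean (y axis) on the 8 arrays (x axis) for Nf1 (thick black line) and the 3 genes with the closest profile. Lines join arrays of separate samples only to make the profiles visible; all 4 genes are lowest on combination array 1.

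Rasal2 and Rasa2 are RasGAPs of different build: the Rasal2 protein belongs to the SynGAP branch with Dab2ip, and Rasa2 to the GAP1 branch with Rasa3. Their promoters are shown beside that of Nf1 because these 2 genes had the largest differences between arrays with and without the MEK inhibitor. The sequences are RefSeq's for build GRCm38.p6, the 250 bases before the gene's start, 5′ to 3′ on the gene's strand, and capitals mark any match to 4 motifs on either strand: the ETS core CCGGAA, the AP-1 site TGANTCA, the cAMP response element TGACGTCA and the E-box CACGTG. The windows are chr11:79339642-79339891 on the plus strand for Nf1, chr9:96631504-96631753 on the minus strand for Rasa2 and chr1:157412596-157412845 on the minus strand for Rasal2.
Nf1: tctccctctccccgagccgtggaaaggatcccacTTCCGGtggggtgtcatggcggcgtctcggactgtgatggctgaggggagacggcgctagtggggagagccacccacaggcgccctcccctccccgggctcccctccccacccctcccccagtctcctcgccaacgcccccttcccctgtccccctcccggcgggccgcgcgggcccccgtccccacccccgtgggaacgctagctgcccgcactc
Rasa2: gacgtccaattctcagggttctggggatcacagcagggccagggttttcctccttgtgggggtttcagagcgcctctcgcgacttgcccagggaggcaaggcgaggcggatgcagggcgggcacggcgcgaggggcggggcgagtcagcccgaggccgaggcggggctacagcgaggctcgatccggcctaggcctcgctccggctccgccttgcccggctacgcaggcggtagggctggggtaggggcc
Rasal2: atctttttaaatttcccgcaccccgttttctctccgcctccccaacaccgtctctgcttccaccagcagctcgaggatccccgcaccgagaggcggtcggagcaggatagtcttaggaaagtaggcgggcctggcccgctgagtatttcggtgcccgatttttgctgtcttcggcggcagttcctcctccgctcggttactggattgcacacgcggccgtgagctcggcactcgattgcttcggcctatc
All 3 windows are rich in G and C (74.0% for Nf1, 71.2% for Rasa2 and 59.6% for Rasal2). The Nf1 window holds 1 ETS core, starting 216 bases before the gene's start, and the other two windows hold no match to the 4 motifs. Over all 32851 promoter windows of this length, 12% held the ETS core, 6.75% the AP-1 site, 1.55% the cAMP response element and 6.02% the E-box. A match is a run of letters and not a measured binding site.

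Rasal2 was the gene in which the arrays with and without PD-0325901 did not overlap. It measured 9.45 and 9.46 with vehicle and 9.63 and 9.43 with rapamycin, against 8.89 and 9.24 with PD-0325901 and 9.29 and 8.81 with the combination. All 4 arrays with the MEK inhibitor lay below all 4 without it, as they did for 2.39% of all genes. The main effect of PD-0325901 was -0.44 (SE 0.14, 95% confidence interval -0.78 to -0.093), a ratio of 0.738, with an unadjusted p of 0.0210 and an adjusted p of 0.414 by limma. The difference was -0.40 (SE 0.20) for PD-0325901 against vehicle and -0.48 (SE 0.20) for the combination against rapamycin, both with no overlap between the arrays (20.9% and 15.1% of all genes). The first was -0.22 without PD-0325901 array 1 and the second -0.24 without combination array 2. The difference between these values, the interaction of the drugs, was -0.09, with a 95% confidence interval of -0.78 to 0.60, wide enough to leave a difference of the size of the effect undetected. Rapamycin itself had a main effect of 0.03 (SE 0.14) on Rasal2.

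Rasa2 was also lower with PD-0325901, but with 1 exception among the arrays. Its values were 8.86 and 8.85 with vehicle, 9.03 and 8.34 with rapamycin, 8.16 and 8.31 with PD-0325901 and 8.46 and 8.11 with the combination. Rapamycin array 2 lay within the range of the arrays with the MEK inhibitor, and the other 3 arrays without it lay above that range. The main effect of PD-0325901 was -0.51 (SE 0.17, 95% confidence interval -0.93 to -0.095), a ratio of 0.700, with an unadjusted p of 0.0240 and an adjusted p of 0.428 by limma. PD-0325901 against vehicle gave -0.63 (SE 0.24, unadjusted p = 0.0417, adjusted p = 0.835 by limma) and the combination against vehicle -0.57 (SE 0.24, unadjusted p = 0.0554, adjusted p = 0.563 by limma). These comparisons share the vehicle arrays. Without rapamycin array 1 the main effect was -0.34 and without rapamycin array 2 it was -0.69. Rapamycin had a main effect of -0.06 (SE 0.17).

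Which genes reached an unadjusted p under 0.05 varied with the arrays used. It was 0 of the 7 without vehicle array 1 (8.95% of all genes), vehicle array 2 (9.8%), PD-0325901 array 1 (7.17%) or combination array 2 (7.65%). Without either vehicle array the differences themselves hardly moved, at -0.51 and -0.52 for Rasa2 and -0.44 for Rasal2 both times, with unadjusted p of 0.0511 to 0.0592 by limma. Without PD-0325901 array 1 they were -0.48 and -0.35, and without combination array 2 -0.43 and -0.32. Without rapamycin array 1 it was 3 genes, Nf1, Rasa1 and Rasa2, with 15.1% of all genes. The direction of Rasa2 and of Rasal2 was the same whichever array was left out.

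Markers of other cells had different averages with and without PD-0325901, with list means that overlapped between the arrays, and their part in the Rasal2 and Rasa2 values was not tested. Of 8 endothelial markers 7 were lower with PD-0325901, and the mean log2 level of the list ran from 9.37 to 9.86 on the arrays with the drug and from 9.52 to 10.47 on those without it. Of 10 macrophage markers 9 were higher, with list means of 10.80 to 11.25 with and 10.59 to 10.96 without the drug. Single markers could still separate. Adgre1 lay between 11.42 and 11.67 with the drug and between 10.69 and 11.16 without it. Csf1r (11.72 to 12.22 against 11.39 to 11.67) and Fcgr1 (10.03 to 10.51 against 9.25 to 9.76) also separated upward. So did Ncr1 and Klrb1c of the T and NK cells and the B cell marker Cd79b (3.34% of all genes). Endothelial Emcn separated downward, at 9.69 to 10.18 with and 10.20 to 10.99 without the drug (2.39%). The remaining markers of these lists overlapped. Itgam, the 1 lower macrophage marker, overlapped, at 10.02 to 10.93 with and 10.29 to 10.82 without the drug. All 8 measured T and NK cell markers were higher, with list means of 7.76 to 8.76 with and 7.13 to 7.81 without it. Of 7 fibroblast markers 6 were higher and 1 lower, with list means of 10.84 to 11.82 with and 10.00 to 11.86 without the drug. Of 6 pericyte and smooth muscle markers 2 were higher and 4 lower, with list means of 9.28 to 10.15 with and 9.49 to 10.17 without it. Arrays of the same group also differed. The fibroblast list mean was 10.00 and 11.86 on vehicle arrays 1 and 2, and 11.79 and 10.17 on rapamycin arrays 1 and 2. The mean of 2 measured erythroid markers was 10.89 on PD-0325901 array 2 and 7.57 to 8.31 on the other arrays.

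Rasa1, the founding RasGAP, whose SH2 domains bind activated growth factor receptors, varied more between arrays of 1 group than between groups. It measured 10.50 and 10.84 with vehicle, 10.42 and 11.87 with rapamycin, 10.42 and 10.68 with PD-0325901 and 10.80 and 10.82 with the combination. Rapamycin array 2 was 1.46 above rapamycin array 1, and 7 of the 8 arrays lay between 10.42 and 10.84. Rapamycin against vehicle was 0.48 (SE 0.45, adjusted p = 0.966 by limma), and -0.25 without rapamycin array 2. For Rasa1 both combination arrays lay above both PD-0325901 arrays (16.3% of all genes), with a difference of 0.26 (SE 0.45) that was 0.13 without PD-0325901 array 1 and 0.39 without PD-0325901 array 2. On rapamycin array 2 the mean of 6 skeletal muscle markers was 10.33, against 7.66 to 9.20 on the other 7 arrays. The same array was the exception for Rasa2 given above. The part of these muscle markers in the Rasa1, Rasa2 and Nf1 values was not tested.

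Dab2ip, a RasGAP of the SynGAP branch that also restrains NF-kB and PI3K signalling, had its higher means in the 2 groups with rapamycin. The values were 8.92 and 8.98 with vehicle, 9.39 and 9.02 with rapamycin, 8.95 and 9.06 with PD-0325901 and 9.36 and 9.04 with the combination. Both rapamycin arrays and both combination arrays lay above both vehicle arrays, as in 12.5% and 17.9% of all genes in those comparisons, but 1 PD-0325901 array overlapped with the rapamycin-treated arrays. The main effect of rapamycin was 0.23 (SE 0.12, 95% confidence interval -0.066 to 0.52, unadjusted p = 0.107, adjusted p = 0.904 by limma), and 0.13 without rapamycin array 1. That of PD-0325901 was 0.03 (SE 0.12).

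Rasa3, a GAP1 family protein that also acts on Rap1 in blood and endothelial cells, overlapped in all comparisons. Its values were 10.48 and 10.01 with vehicle, 10.46 and 10.36 with rapamycin, 10.16 and 10.37 with PD-0325901 and 10.45 and 10.22 with the combination. The 2 vehicle arrays held both the highest and the lowest of the 8 values. The main effects were -0.03 (SE 0.13) for PD-0325901, which was 0.0028 after quantile normalization, and 0.12 (SE 0.13) for rapamycin.

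Nras, the measured Ras gene among those the rule named, had the smallest range of the 7 genes, 0.35 log2 over the 8 arrays. It measured 10.25 and 10.49 with vehicle, 10.42 and 10.56 with rapamycin, 10.52 and 10.37 with PD-0325901 and 10.60 and 10.37 with the combination. The groups overlapped in every comparison. The 95% confidence interval of the main effect was -0.21 to 0.28 for PD-0325901 and -0.16 to 0.33 for rapamycin, so these arrays leave room for differences of up to about that size.

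**Figure D3:**
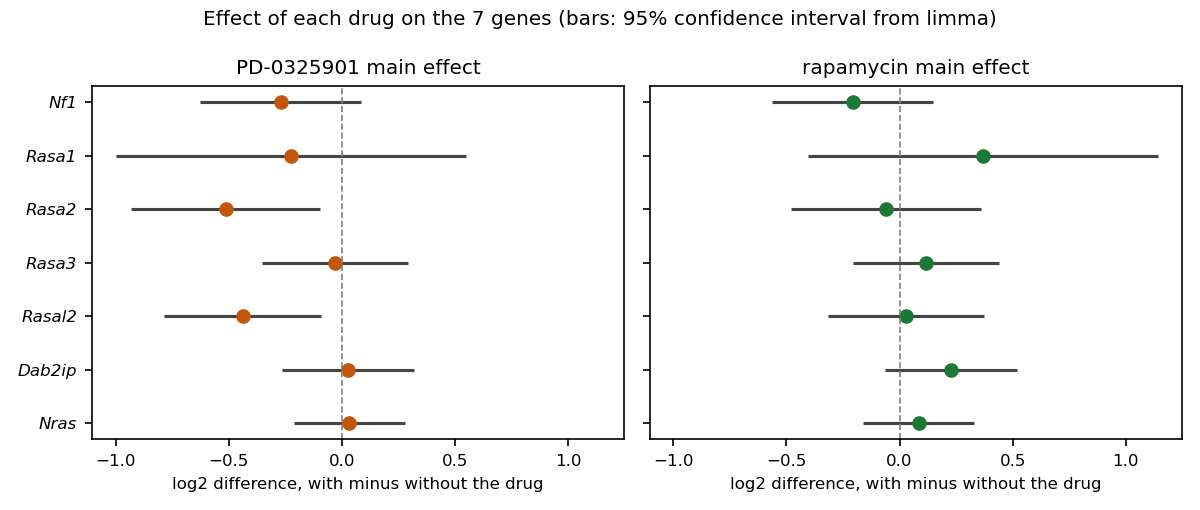
Main effect of PD-0325901 (left) and rapamycin (right) on each gene as a log2 difference (x axis), arrays with minus arrays without the drug. Points are estimates from the contrasts of 4 group means and bars 95% confidence intervals from limma, unadjusted for the number of genes. The intervals of Rasa2 and Rasal2 with PD-0325901 end below 0 (at -0.095 and -0.093) and all others include 0.

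Other genes that act on the Ras switch were taken from lists written with earlier results of these data known, so their counts are no independent support. Among RasGAPs and GAP-related scaffolds outside the 8 genes, 7 of 8 were measured. In the PD-0325901 main effect 4 were higher and 3 lower, 0 passed the threshold and 3 reached an unadjusted p under 0.05, all higher (5.47% of all genes did so on the higher side). Iqgap2, a scaffold with a GAP-related domain that has no GAP activity of its own, measured 8.90 and 9.36 with vehicle, 9.27 and 9.14 with rapamycin, 10.24 and 10.45 with PD-0325901 and 10.42 and 10.50 with the combination. Its main effect was 1.23 (SE 0.12, adjusted p = 0.141 by limma). Gapvd1, which carries a RasGAP domain and works in endocytosis, had a main effect of 0.41 (SE 0.10), and Rasal3, a RasGAP of lymphocytes, of 0.42 (SE 0.10). For all 3 genes the 4 arrays with PD-0325901 lay above the 4 without it (3.34% of all genes). Rasal3 measured 8.54 and 8.42 with vehicle, 8.18 and 8.19 with rapamycin, 8.57 and 8.78 with PD-0325901 and 8.67 and 8.98 with the combination. Its highest vehicle array and lowest PD-0325901 array were thus close together. In the rapamycin main effect Gapvd1 had a difference of 0.17 (SE 0.10) and Rasal1 of -0.08 (SE 0.07). The T and NK cell markers given above were also higher on average with PD-0325901, and their part in the Rasal3 value was not tested.

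The list of neurofibromin partners held the Spred genes and Lztr1. Spred1 and Spred2 bring neurofibromin to Ras at the membrane and are themselves induced by ERK. Spred1 measured 10.54 and 10.59 with vehicle, 10.56 and 10.69 with rapamycin, 9.96 and 9.97 with PD-0325901 and 10.15 and 10.14 with the combination. The 4 arrays with the MEK inhibitor all lay below the 4 without it (2.39% of all genes). The main effects of PD-0325901 were -0.54 (SE 0.07, adjusted p = 0.141 by limma) for Spred1, -0.36 (SE 0.08, adjusted p = 0.246) for Spred2 and -0.24 (SE 0.11, adjusted p = 0.565) for Spred3. Lztr1, an adaptor for the degradation of Ras proteins, had a difference of -0.08 (SE 0.17). With rapamycin the main effects were 0.12 (SE 0.07) for Spred1 and -0.22 (SE 0.11) for Spred3. All 4 genes of this list were lower with PD-0325901, with 0 past the threshold and 2 at an unadjusted p under 0.05 (4.14% of all genes on the lower side).

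**Figure D4:**
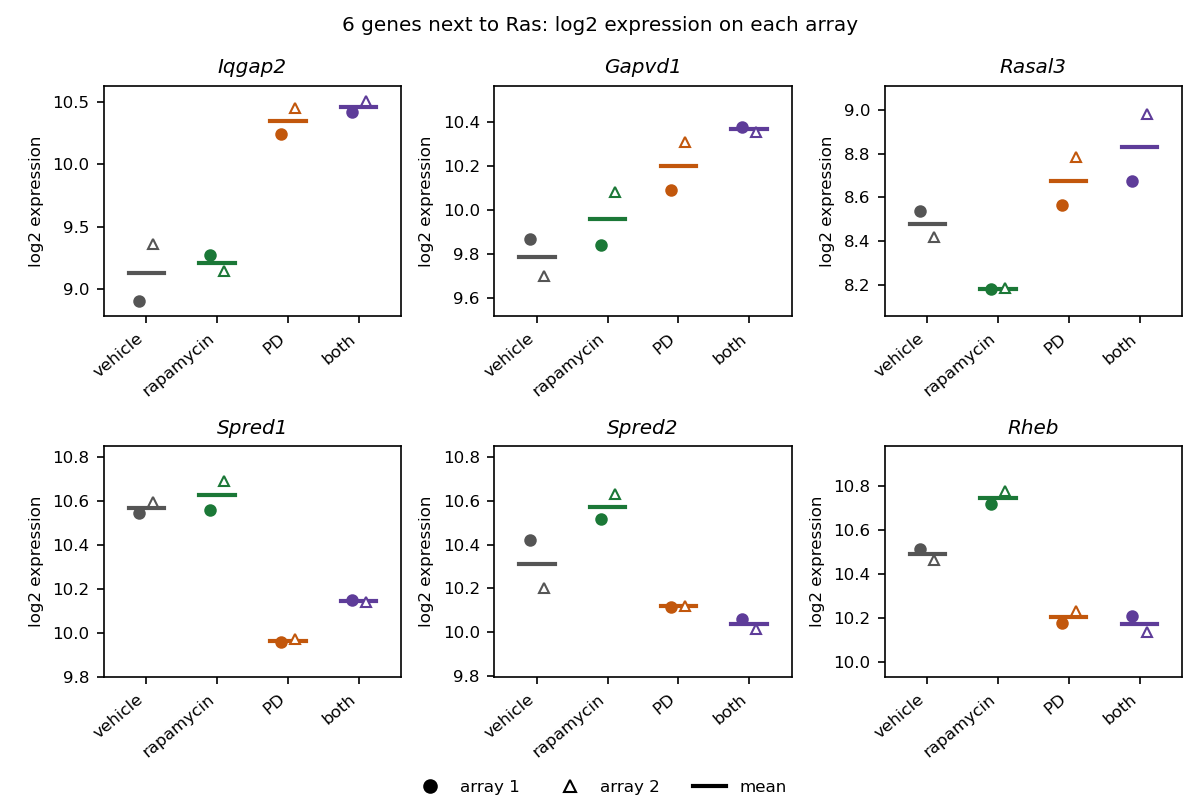
Log2 expression (y axis, each panel on its own range) of 6 genes that act on or near Ras, in the 4 treatment groups (x axis; PD is PD-0325901, both is the combination). Circles are array 1, triangles array 2 and bars the mean of 2 arrays. The genes were picked from those with the smallest p of their lists. Arrays with PD-0325901 lie above the others for Iqgap2, Gapvd1 and Rasal3 (3.34% of all genes) and below them for Spred1, Spred2 and Rheb (2.39%).

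Among relatives of the Ras proteins 9 of 10 were measured, with 2 higher and 7 lower in the PD-0325901 main effect. Rheb, the GTPase that activates mTORC1, measured 10.51 and 10.46 with vehicle, 10.72 and 10.77 with rapamycin, 10.18 and 10.23 with PD-0325901 and 10.21 and 10.14 with the combination. Its main effect of PD-0325901 was -0.43 (SE 0.06, unadjusted p = 0.000572, adjusted p = 0.154 by limma), and it was the 1 relative of 9 at an unadjusted p under 0.05, a share close to the 9.6% of all genes. Mras had a difference of -0.16 (SE 0.12) and Rras2 of 0.22 (SE 0.19). For rapamycin, Rras had a main effect of 0.25 (SE 0.08, unadjusted p = 0.0175, adjusted p = 0.801 by limma) and Rit1 of 0.27 (SE 0.12).

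The exchange factors that switch Ras on were divided. Of 8, all measured, 5 were higher and 3 lower with PD-0325901. Rasgrp4, an exchange factor of mast and myeloid cells, had a difference of 0.60 (SE 0.24, unadjusted p = 0.0482, adjusted p = 0.515 by limma). It was the 1 of 8 at an unadjusted p under 0.05, which 9.6% of all genes reached. The general exchange factors Sos1 and Sos2 had differences of -0.19 (SE 0.08) and -0.23 (SE 0.14). In the rapamycin main effect 7 of the 8 were higher, with Sos2 at 0.31 (SE 0.14) and Rasgrp2 at 0.19 (SE 0.15). None reached an unadjusted p under 0.05, beside 5.55% of all genes.

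Upstream adaptors, lipid processing and the kinase cascade showed no gene at an unadjusted p under 0.05 for either main effect. Over all genes 9.6% reached it for PD-0325901 and 5.55% for rapamycin, so a count of 0 in lists this short says little. Of 5 measured adaptors (6 listed) 4 were higher with PD-0325901. Grb2, which links receptors to Sos, had a difference of 0.23 (SE 0.12), Gab2 of 0.18 (SE 0.10) and the phosphatase gene Ptpn11 of -0.28 (SE 0.15). With rapamycin the docking protein gene Gab1 had a difference of 0.46 (SE 0.24) and Shc1 of 0.21 (SE 0.16). Of 7 genes for the lipid anchor of Ras and its transport, 3 were higher and 4 lower with PD-0325901. The farnesyltransferase subunits Fnta and Fntb had differences of 0.38 (SE 0.19) and -0.44 (SE 0.26), and the protease Rce1 of -0.20 (SE 0.12). With rapamycin Pde6d, a carrier of lipid-anchored proteins, had a difference of 0.33 (SE 0.17) and Rce1 of -0.15 (SE 0.12).

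In the RAF, MEK and ERK cascade itself 7 of 10 genes were measured, 6 lower and 1 higher with PD-0325901. Map2k1, which encodes MEK1, a target of the drug, measured 10.20 and 9.65 with vehicle, 10.06 and 10.08 with rapamycin, 9.64 and 9.86 with PD-0325901 and 9.82 and 9.54 with the combination. Its arrays overlapped, with a main effect of -0.28 (SE 0.15). The difference was -0.13 (SE 0.10) for Map2k2 and 0.10 (SE 0.08) for the scaffold Ksr1. With rapamycin the RAF kinase genes Araf and Braf had differences of 0.12 each (SE 0.09 and 0.12).

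Among the ERK targets, 4 of 14 reached an unadjusted p under 0.05 in the PD-0325901 main effect, all lower (4.14% of all genes on that side). Dusp5, a phosphatase of ERK, had a difference of -0.75 (SE 0.22), the transcription factor gene Etv5 of -0.48 (SE 0.16) and the immediate early gene Egr1 of -0.89 (SE 0.33), with adjusted p of 0.361, 0.438 and 0.478 by limma. The fourth, named after its values were seen, was Dusp6 at -0.76 (SE 0.29). In the rapamycin main effect Spry2, a feedback inhibitor of receptor signalling, had a difference of -0.55 (SE 0.24) and Fosl1 of -0.34 (SE 0.19).

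**Figure D5:**
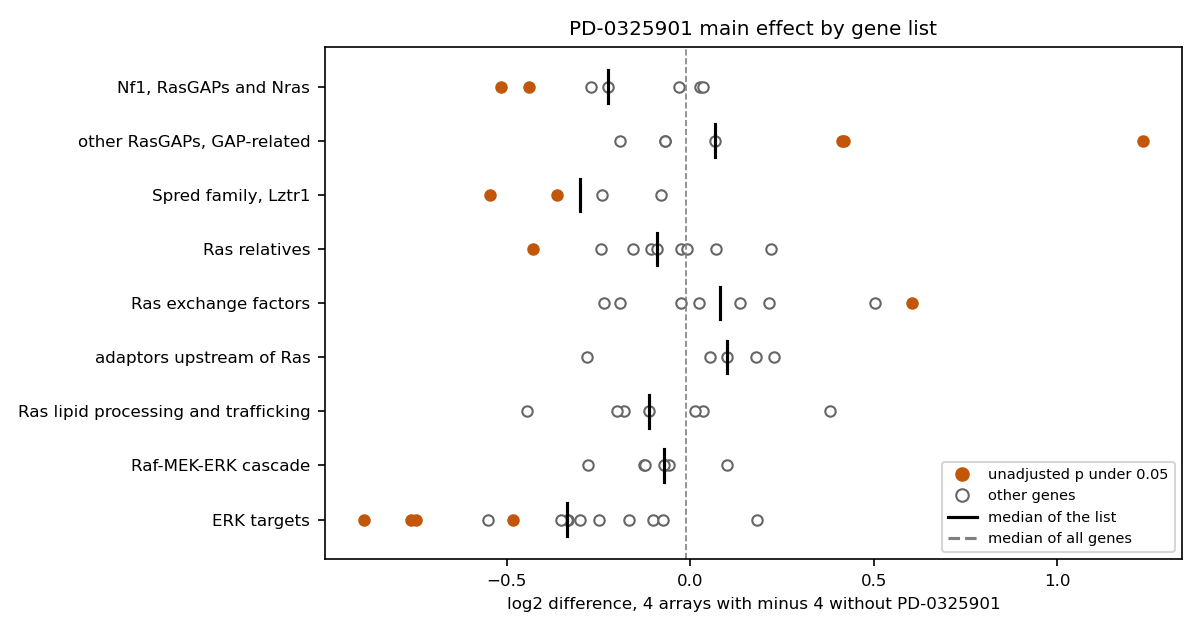
Log2 difference in the PD-0325901 main effect (x axis, 4 arrays with minus 4 without the drug) for each measured gene of the 9 lists (y axis). Filled points have an unadjusted p under 0.05 by limma, short bars are list medians and the dashed line is the median of all genes (-0.01); the lowest list medians are -0.33 for ERK targets and -0.30 for the Spred family with Lztr1.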

How the data were processed

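The authors deposited 1 log2 value per probe set and array, without further normalization here. The log2 unit was read from the values (3.36 to 14.36); how they were normalized, and by which software, is not given in the sources used here. Per the labels' protocols, RNA from Trizol and RNeasy went through the NuGEN Applause WT-Amp ST kit. Of 35512 probe sets, 21789 are annotated to 1 gene symbol by GEO's platform table, giving 19938 genes, each by its highest-mean probe set. Groups came from sample titles. limma 3.58.1 in R 4.3.3 (lmFit, eBayes, 4 residual and 1.98 prior degrees of freedom) was fitted to all 8 arrays and tested on simulated data. No filter on low values was used. The genes, lists and tests were chosen with earlier results of these data known. Named list genes are the 3 smallest p per list for PD-0325901 and the 2 smallest for rapamycin. Dusp6, Lztr1 and the PD-0325901 difference of Spry2 were added after their values were seen. Alternatives were quantile normalization, median centring, genes above the median level, a variance trend with robust prior, probe set means, array number as a block, a threshold of 0.1, only the groups compared, 4 arrays against 4, and each array left out.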

Additional observations from a re-analysis of the deposited data

How the results depend on the processing

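None of the 7 genes passed the threshold under any alternative run, in any comparison. The size of a difference could change only with quantile normalization, median centring or an array left out; the other alternatives alter its error or p alone. Differences changed sign 63 times. After quantile normalization the sign changed for Rasa3 in the PD-0325901 main effect (0.0028) and for Nras in the combination against rapamycin (0.037). The other sign changes came from leaving out 1 array, with these ranges. PD-0325901 main effect: Rasa1 -0.59 to 0.14, Rasa3 -0.15 to 0.088, Dab2ip -0.067 to 0.12 and Nras -0.026 to 0.093. Rapamycin main effect: Rasa2 -0.23 to 0.11, Rasa3 -0.00046 to 0.23 and Rasal2 -0.090 to 0.15. PD-0325901 against vehicle: Rasa1 -0.29 to 0.052, Rasa3 -0.22 to 0.25 and Nras -0.048 to 0.19. Rapamycin against vehicle: Nf1 -0.40 to 0.086, Rasa1 -0.25 to 1.20, Rasa2 -0.51 to 0.17, Rasa3 -0.070 to 0.40 and Rasal2 -0.028 to 0.17. Combination against vehicle: Rasa1 -0.025 to 0.31, Rasa3 -0.15 to 0.32 and Nras -0.00082 to 0.24. Combination against rapamycin: Rasa1 -1.06 to 0.40, Rasa3 -0.20 to 0.041, Dab2ip -0.19 to 0.18 and Nras -0.12 to 0.11. Combination against PD-0325901: Rasa2 -0.12 to 0.22, Rasa3 -0.049 to 0.19, Rasal2 -0.25 to 0.22 and Nras -0.068 to 0.16. Interaction of the drugs: Nf1 -0.35 to 0.14, Rasa1 -0.94 to 0.51, Rasa2 -0.12 to 0.57, Rasa3 -0.33 to 0.14, Rasal2 -0.33 to 0.15, Dab2ip -0.25 to 0.13 and Nras -0.19 to 0.045. The cause was not tested.

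The number of these genes at an unadjusted p under 0.05 in the PD-0325901 main effect, an alternative chosen after seeing the data, was 2 and ran from 0 to 3 with 1 array left out. Over all genes the count past the threshold was 0 in each comparison and 22 for PD-0325901 with 4 arrays set against 4, where Rasal2 and Rasa2 had adjusted p of 0.267 and 0.292 by limma. With 1 array left out it ran from 0 to 8 for the PD-0325901 main effect, 0 to 2 for that of rapamycin, 0 to 9 for PD-0325901 against vehicle, 0 to 15 for rapamycin against vehicle, 0 to 9 for the combination against vehicle and 0 to 2 for the interaction. Each highest count came without vehicle array 2, except that of rapamycin against vehicle, which came without rapamycin array 2. A group left with 1 array is assumed to vary like the others.

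The labels do not say whether the array numbers pair the samples. The difference of array 1 minus array 2 correlated between groups from -0.28 to 0.18 over the 6 pairs of groups. These correlations cannot decide the question, since a pairing that affects few genes or some groups could leave them low. The array number as a replicate block leaves the differences as they are by construction (-0.44 for Rasal2 and -0.51 for Rasa2); their adjusted p became 0.505 and 0.467 by limma, and 0 genes passed.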
